A study of Saccharomyces eubayanus and Saccharomyces cerevisiae x Saccharomyces eubayanus with 20 samples.

Results

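Hybrid HTSH020, spelled HTS020 in the sample labels, is a laboratory cross of the Himalayan S. eubayanus isolate CDFM21L.1 with the S. cerevisiae ale strain CBC-1, and the data below describe how its transcriptome on maltotriose differed from that on glucose. The comparison uses 4 of the 20 libraries of the study, chosen by their titles: 2 cultures on maltotriose and 2 on glucose. It covers all 11292 gene models of the combined annotation, 5511 of the S. eubayanus subgenome (gene names with Se) and 5781 of the S. cerevisiae subgenome (Sc). The study asked which sugars induce the maltose genes of Himalayan S. eubayanus, alone and in a hybrid, and sequenced mRNA of 4 strains. The hybrid is a single strain (MATa/MATα, Mal+ Mtt+), obtained by bringing spores of both parents together and streaking the colonies on maltose, and neither parent consumed maltotriose. According to the study, CBC-1 has no AGT1 (MAL11) gene, so that SeAGT1 is the only AGT1 gene in the hybrid. Duplicate cultures were grown in shake flasks at 20°C in synthetic medium with 20 g of the sugar per liter, and another pair on maltose served as a reference. The replicates were separate cultures of the same strain.

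The labels disagree on some points. Titles and carbon-source tags name maltotriose for both maltotriose cultures, but their free-text descriptions name the maltose medium, and the description of maltose culture 1 names the maltotriose medium. Titles and tags were followed. The labels give an optical density of 12.5 at sampling for every culture, whereas the methods place all cultures in mid-exponential phase but give a higher density on maltotriose than on the other sugars. The sugar and the stage of growth at sampling therefore cannot be told apart in what follows.

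Saccharomyces yeasts take up maltose and maltotriose by proton symport and hydrolyze them to glucose inside the cell. The transporters are encoded by the MALT genes and AGT1, the α-glucosidases by the MALS genes, and the activators of both by the MALR genes. Glucose represses these genes and also those for respiration, for the use of ethanol, acetate and fatty acids, and for gluconeogenesis, mainly through Mig1 and the Snf1 kinase. When fermentable sugar runs out, S. cerevisiae turns these routes on, stores glycogen, forms stress proteins and makes fewer ribosomes.

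Between 17695093 and 23175074 reads were counted on genes per library, and FPKM, fragments per kilobase of gene and per fixed number of counted reads, makes genes and libraries comparable. On a gene of 1 kb, 1 read amounted to 0.04315 to 0.0565 FPKM. The S. eubayanus genes took 49.5% and 49.4% of these reads on glucose and 48.0% and 48.1% on maltotriose, so both subgenomes were transcribed to about the same extent in every culture. Across all genes tested, log2(FPKM + 1) correlated with r = 0.994 between the glucose cultures and 0.989 between the maltotriose cultures, but with 0.694 to 0.702 between the sugars (a description over 10983 genes, which are not independent). The maltose cultures differed more from each other (r = 0.977), and values for them are given by culture. Being bulk RNA, the data cannot tell a higher level in all cells from a larger share of cells with the transcript.

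Most genes differed between the sugars. Of the 10983 genes averaging 1 FPKM or more, 3439 (31.3%) were higher and 4363 (39.7%) lower on maltotriose (limma on log2(FPKM + 1), with p-values adjusted over all these genes after Benjamini and Hochberg and a threshold of 0.05). Relative to maltose, 28.1% were higher and 36.7% lower in the same fit. Against glucose by at least 2-fold were 1967 (17.9%) higher and 2440 (22.2%) lower. In the S. eubayanus subgenome, 1684 genes were higher and 2223 lower of 5395 tested, and in the S. cerevisiae subgenome 1755 and 2140 of 5588. The median log2 fold change was -0.14 over all genes, -0.17 for S. eubayanus and -0.12 for S. cerevisiae genes. Rescaling the libraries by their median ratio moved this median by 0.14 and rescaling to equal FPKM sums by -0.20, so a change of this size depends on the scaling. Rises reached further than falls: 143 genes rose and 11 fell by 5 or more on the log2 scale. In the following, "rose" and "fell" refer to calls by this test, log2 fold changes are given ± SE on the log2(FPKM + 1) scale, and values of single genes are FPKM in culture 1 and culture 2. With this pseudocount, log2 fold changes understate the change of genes near 0 FPKM on glucose. Rises and falls counted in a list are to be read beside the 31.3% higher and 39.7% lower of all genes tested.

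**Figure D1:**
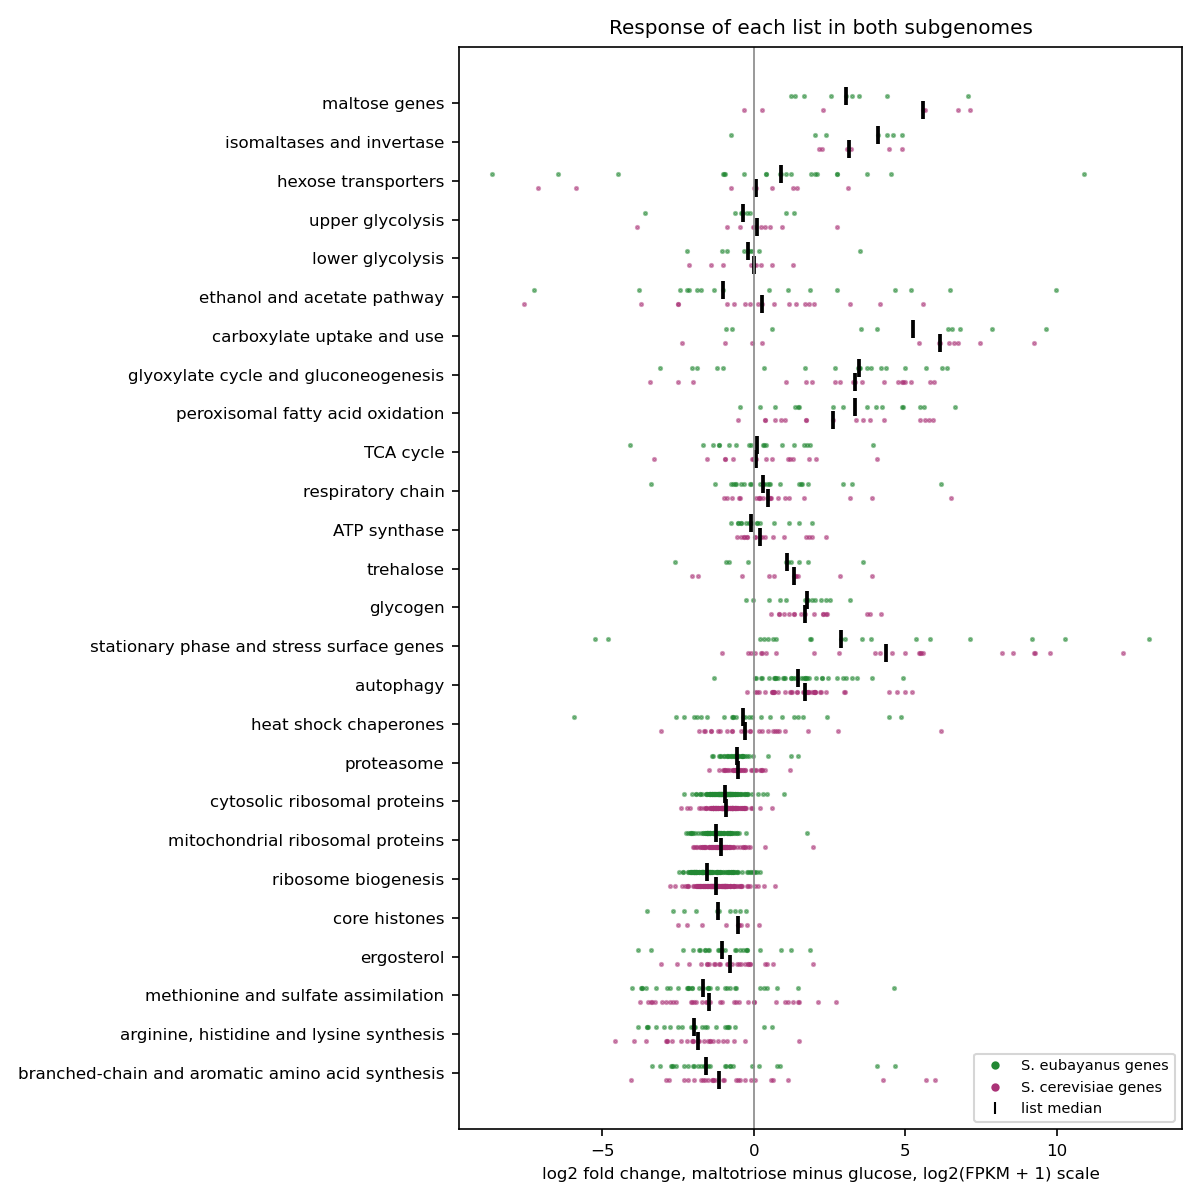
Log2 fold changes on maltotriose relative to glucose for the tested genes of 26 lists, with S. eubayanus genes in green, S. cerevisiae genes in purple and black ticks for the list medians (5.24 and 6.13 for carboxylate uptake, -1.54 and -1.26 for ribosome biogenesis). Lists for the use of nonsugar carbon lie to the right of 0 and those for ribosomes to the left in both subgenomes.

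All 9 S. eubayanus maltose genes and 5 of 7 S. cerevisiae ones rose on maltotriose, with medians of 3.04 and 5.60 on the log2 scale. SeAGT1, the maltotriose transporter gene of the hybrid, was at 7.35 and 6.23 FPKM on glucose, summed over its 3 copies on chromosomes 7, 14 and 15 of CDFM21L.1, and at 1124 and 987 FPKM on maltotriose (log2 fold change 7.08 ± 0.31, adjusted p = 4.4e-06). The ratio of the means was 155 ± 23.1 (propagated SD, n = 2). On maltose, SeAGT1 was still higher, at 3558 and 7529.7 FPKM, and the log2 difference of maltotriose from maltose was -2.30 (adjusted p = 0.000681). The study describes the 3 copies as identical, so that reads cannot tell them apart. The read counts of the copies on chromosomes 7 and 15 were almost equal in every library (12661 and 12711 reads in maltotriose culture 1), so the same reads may have been counted on each copy. The summed SeAGT1 level may then count each transcript up to 3 times. The copy on chromosome 7 alone was at 2.48 and 2.10 FPKM on glucose and 377 and 333 on maltotriose.

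SeMALT1, another transporter gene, lies on chromosome 2 (positions 20652 to 22436, plus strand of CDFM21L.1) and was the only S. eubayanus transporter gene with its highest level on maltotriose. It stood at 0.653 and 0.602 FPKM in the glucose cultures, 4.33 and 4.54 with maltose and 31.5 and 34.8 with maltotriose (log2 fold change 4.39 ± 0.15, adjusted p = 1.7e-06), and was 2.65 higher than on maltose (adjusted p = 1.66e-05). Its level on maltotriose remained far below that of each SeAGT1 copy. The remaining transporter genes, which the annotation divides into 2 models each, rose less, SeMALT2 from 5.85 and 5.10 to 12.0 and 16.8 FPKM (log2 fold change 1.24 ± 0.43, adjusted p = 0.0361) and SeMALT3 from 12.9 and 13.0 to 33.9 and 36.2 (log2 fold change 1.37 ± 0.30, adjusted p = 0.00538). The call of SeMALT2 was lost when any of the 4 glucose and maltotriose cultures was left out (SeMALT2 log2 fold change 1.00 to 1.47, adjusted p = 0.0806 to 0.193). Both were higher on maltose (log2 difference of maltotriose from maltose -3.41 and -1.39). According to the study, premature stop codons truncate SeMALT2 and SeMALT3. Neither supported growth on maltose when expressed in an S. cerevisiae strain without maltose genes of its own.

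The maltase genes rose in both subgenomes. ScMALS1, an S. cerevisiae maltase gene, rose from 2.47 and 2.62 to 499.7 and 503 FPKM (log2 fold change 7.15 ± 0.15, adjusted p = 3.63e-07), and ScMALS2, the other one, from 3.16 and 3.38 to 466 and 437 (log2 fold change 6.73). The S. eubayanus maltase genes started higher and reached less, SeMALS1 going from 9.28 and 9.29 to 79.5 and 87.5 FPKM (log2 fold change 3.04 ± 0.14, adjusted p = 5.7e-06) and SeMALS2 from 12.53 and 13.1 to 79.7 and 80.5 (log2 fold change 2.55). All 4 were higher on maltose, SeMALS1 at 902 and 1128 and ScMALS1 at 2997 and 3939 FPKM, with log2 differences of maltotriose from maltose between -2.77 (ScMALS1) and -4.19 (SeMALS2). For SeAGT1 and the S. cerevisiae transporters the gap to maltose was smaller, ScMALT1 being at 11.5 and 20.4 FPKM in the glucose cultures, 2011 and 2872 with maltose and 847 and 738 with maltotriose (log2 fold change 5.60 ± 0.27, adjusted p = 6.36e-06). ScMALT2 had nearly the same values (log2 fold change 5.65), and reads of such copies can be counted on either. No test of transporters against maltases as classes was made.

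Among the regulator genes, the S. eubayanus members all rose, although from low levels. SeMALR2 went from 4.15 and 4.10 to 62.8 and 49.5 FPKM (log2 fold change 3.47 ± 0.32, adjusted p = 8.89e-05), SeMALR3 from 0.785 and 0.640 to 15.3 and 15.0 (log2 fold change 3.24) and SeMALR1 from 12.0 and 12.1 to 43.4 and 37.5 (log2 fold change 1.66). The study reports a premature stop codon in SeMALR1 too. Of the S. cerevisiae regulators, ScMALR1 rose from 9.11 and 8.68 to 48.9 and 45.3 FPKM (log2 fold change 2.28 ± 0.13, adjusted p = 1.17e-05). ScMALR2 stood at 21.1 and 18.9 FPKM on glucose and 15.7 and 15.9 on maltotriose (adjusted p = 0.0681) and ScMALR3 at 7.24 and 8.66 FPKM on glucose and 9.56 and 9.91 on maltotriose (adjusted p = 0.211), so neither passed the test. The ScMALR2 value joins 2 models. The model named YPR196W went from 35.4 and 31.7 to 25.2 and 26.0 FPKM, and the model named YGR288W from 1.94 and 1.73 to 3.03 and 2.26. These models are 1233 and 917 bases long, and ScMALR3, also named YPR196W, is a single model of 1233 bases. The joined ScMALR2 value may therefore cover 2 genes, and whether both models belong to 1 gene was not tested. Together the 16 maltose genes, with SeAGT1 as the sum of its 3 copies, took 0.0221% and 0.0247% of all reads with glucose as the sugar, 2.85% and 4.38% with maltose, and 0.739% and 0.664% with maltotriose.

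**Figure D2:**
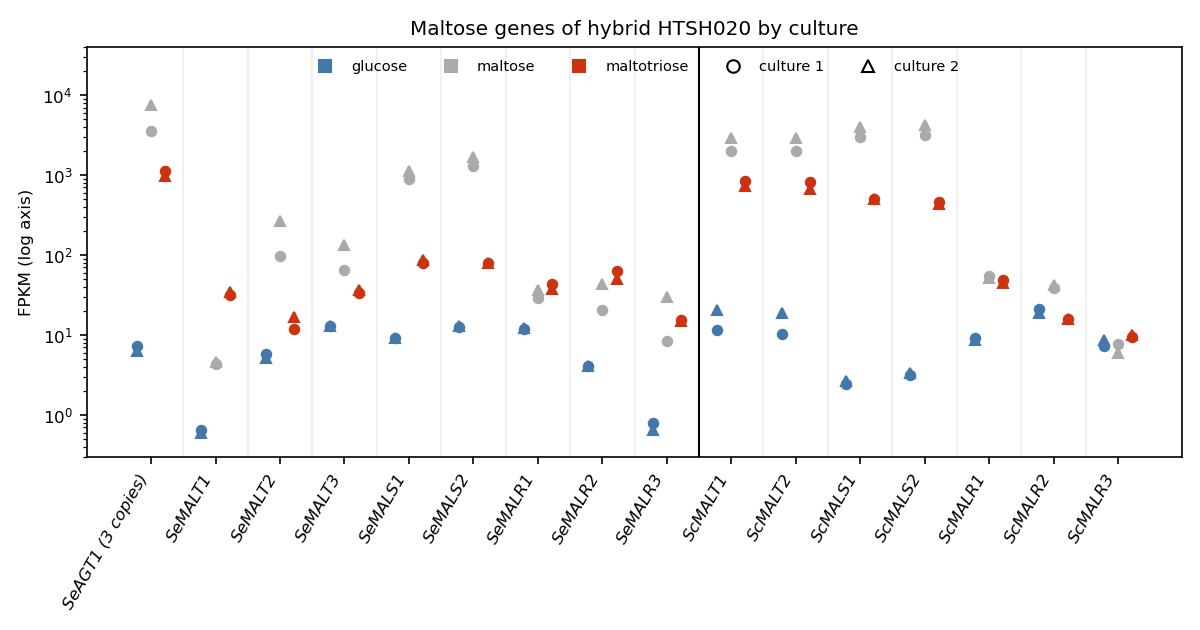
FPKM (log axis) of the 16 maltose genes in each culture of hybrid HTSH020, circles for culture 1 and triangles for culture 2, with glucose in blue, maltose in gray and maltotriose in red. SeAGT1 is the sum of 3 copies; SeMALT1 is the only transporter gene whose red points lie above the gray ones.

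The IMA genes encode isomaltases, close relatives of the maltases, and SUC2 encodes invertase, which is repressed by glucose in S. cerevisiae. All 10 isomaltase genes rose. SeIMA1 copy b rose from 9.28 and 8.85 to 334 and 264 FPKM (log2 fold change 4.89 ± 0.15, adjusted p = 1.2e-06), the 3 SeIMA2 copies by 2.37 (SeIMA2 copy a) to 4.38 (SeIMA2 copy c) on the log2 scale, ScIMA1 from 3.09 and 3.40 to 34.5 and 41.4 FPKM (log2 fold change 3.19 ± 0.29, adjusted p = 8e-05) and ScIMA5 from 0.508 and 0.583 to 5.50 and 7.25 FPKM (log2 fold change 2.25). As with the maltases, most were higher still on maltose, the exceptions being SeIMA2 copy b (7.76 and 18.7 FPKM on maltose, 79.4 and 41.7 on maltotriose) and both ScIMA2 copies. Invertase separated the subgenomes. SeSUC2 was high on every sugar and fell from 1352 and 1444 to 824 and 823 FPKM (log2 fold change -0.76 ± 0.09, adjusted p = 0.000226), whereas both ScSUC2 copies rose, ScSUC2 copy b from 34.0 and 45.2 to 1198 and 1214 FPKM (log2 fold change 4.91 ± 0.22, adjusted p = 4.8e-06). SeSUC2 had also been at 1957 and 2038 FPKM on maltose.

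The S. eubayanus subgenome had 21 tested HXT models, of which 12 rose and 3 fell, and the S. cerevisiae subgenome 9, of which 2 rose and 2 fell. HXT genes encode the hexose carriers of the plasma membrane. The falls were those of HXT1 and HXT3, which encode low-affinity carriers, and of HXT4. SeHXT3 fell from 733 and 1051 to 1.06 and 1.32 FPKM (log2 fold change -8.65 ± 0.21, adjusted p = 5.15e-07) and ScHXT3 from 713 and 969.7 to 13.1 and 13.2 FPKM (log2 fold change -5.88 ± 0.17, adjusted p = 8.62e-07). SeHXT4, ScHXT4 and SeHXT1 also fell, with log2 fold changes of -6.48, -7.14 and -4.48. Without glucose culture 1 or 2 the SeHXT4 log2 fold change was -7.17 or -5.78. They were also low on maltose, SeHXT3 being at 1.22 and 0.886 FPKM.

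Among these carriers the largest rise was that of SeHXT5. HXT5 encodes a carrier of moderate affinity that S. cerevisiae expresses when it grows slowly. SeHXT5 copy a went from 0.255 and 0.486 FPKM on glucose and 0.0943 and 0.421 on maltose to 2397 and 2898 FPKM on maltotriose (log2 fold change 10.91 ± 0.19, adjusted p = 2.77e-07). ScHXT5 went from 27.3 and 43.5 FPKM on glucose and 0.834 and 0.836 on maltose to 297 and 311 FPKM (log2 fold change 3.10 ± 0.21, adjusted p = 2.69e-05). Both therefore separated maltotriose from maltose as well as from glucose. HXT2, a high-affinity carrier, split between the copies, with SeHXT2 rising from 18.7 and 20.96 to 419 and 542 FPKM (log2 fold change 4.52 ± 0.16, adjusted p = 2.12e-06) while ScHXT2 stood at 14.8 and 22.6 FPKM on glucose and 7.85 and 14.1 on maltotriose (adjusted p = 0.0628). The high-affinity genes SeHXT7 and ScHXT7 copy a were between 295 and 730.2 FPKM on both sugars and did not pass the test. SeHXT13 copy c was at 864 and 1926 FPKM on maltose but at 18.2 and 50.3 on glucose and 16.4 and 13.7 on maltotriose.

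Hexokinase 2, the main glucose-phosphorylating enzyme on glucose and a part of the repression complex in S. cerevisiae, fell in both subgenomes, SeHXK2 from 279.7 and 348 to 25.5 and 24.5 FPKM (log2 fold change -3.59 ± 0.13, adjusted p = 2.44e-06) and ScHXK2 from 326 and 405 to 23.3 and 25.0 (log2 fold change -3.86). On maltose, SeHXK2 was at 371 and 364 FPKM. Glucokinase rose, by 1.34 (SeGLK1) and 2.74 (ScGLK1), while HXK1 did not pass the test in either subgenome. Without maltotriose culture 2 the SeGLK1 log2 fold change was 1.27 (adjusted p = 0.0662) and no longer passed. Genes for the glucose repressors fell moderately, with log2 fold changes of -1.25 (SeMIG1), -0.77 (ScMIG1), -2.06 (SeMIG2) and -1.82 (ScMIG2). STD1, a regulator of HXT genes that is itself induced by glucose, fell from 20.3 and 28.4 to 0.985 and 1.39 FPKM (SeSTD1) and from 22.1 and 32.7 to 2.14 and 2.52 FPKM (ScSTD1).

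Transcription activators of the genes released from glucose repression rose in both subgenomes. SeSIP4 went from 0.667 and 1.10 to 137 and 137 FPKM (log2 fold change 6.20 ± 0.21, adjusted p = 1.67e-06) and ScSIP4 from 0.936 and 1.23 to 43.4 and 49.2 (log2 fold change 4.51). SeCAT8 rose from 1.16 and 0.825 to 25.5 and 21.6 FPKM (log2 fold change 3.62) and ScCAT8 copy a from 3.21 and 2.03 to 25.2 and 41.6 (log2 fold change 3.23), and ADR1 rose by 1.96 (SeADR1) and 3.09 (ScADR1). Cat8 and Sip4 activate gluconeogenic genes in S. cerevisiae, and Adr1 those for ethanol and fatty acid use. The gene for the Snf1 kinase itself did not pass the test, SeSNF1 being at 25.4 and 22.2 FPKM on glucose and 26.8 and 26.6 on maltotriose (adjusted p = 0.345), but SIP2, a β subunit of the kinase, rose by 2.64 (SeSIP2) and 3.33 (ScSIP2). HAP4, the activating subunit of the complex for respiratory genes, went the other way, SeHAP4 falling from 56.2 and 85.6 to 31.5 and 20.5 FPKM (log2 fold change -1.41) and ScHAP4 from 68.2 and 107 to 36.1 and 32.2 (log2 fold change -1.30). The list of glucose sensing and repression genes also held RGI2, a gene induced in respiratory growth. In all, 12 genes of this list rose and 6 fell of 30 S. eubayanus members, and 17 rose and 7 fell of 32 S. cerevisiae members.

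**Figure D3:**
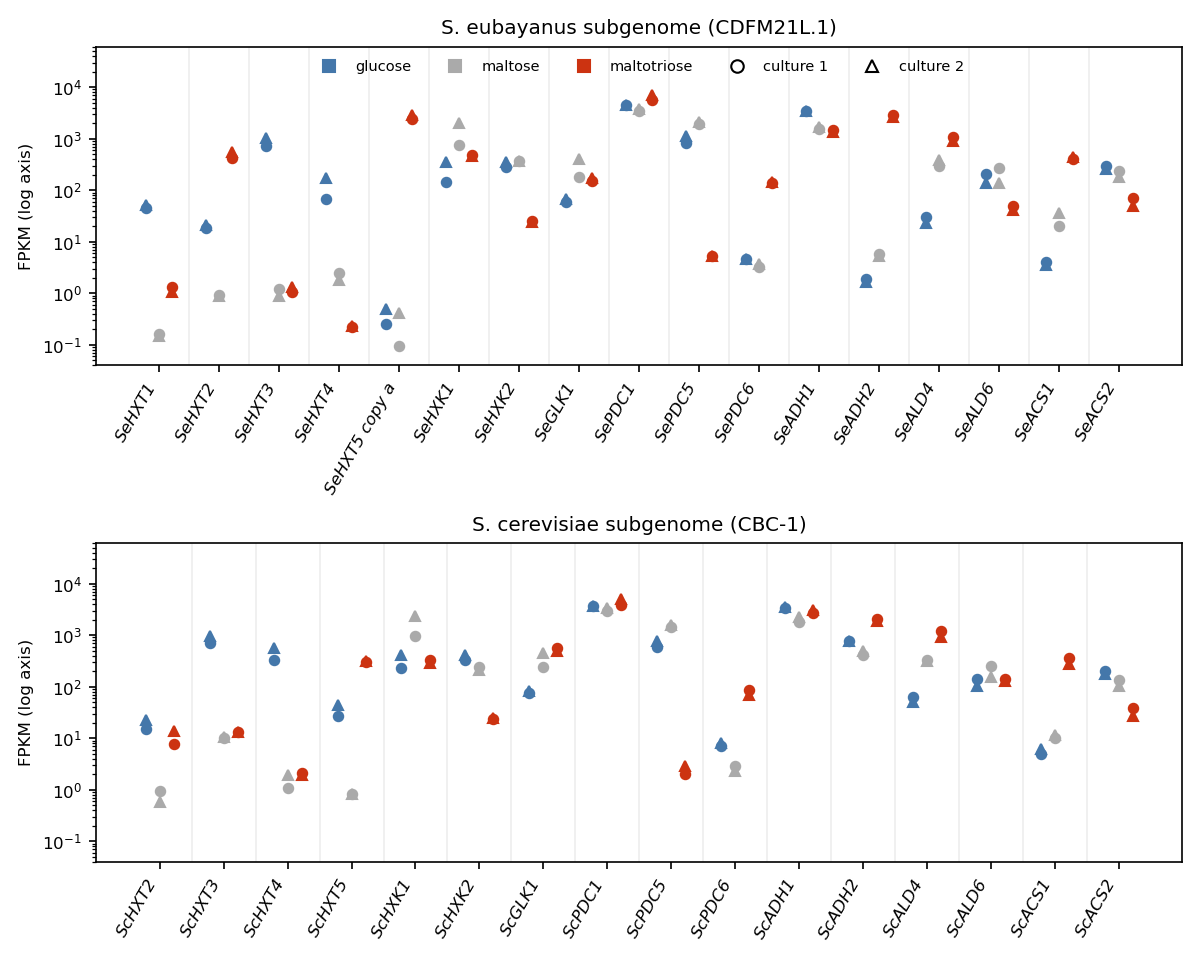
FPKM (log axis) of hexose transporter, hexose kinase and fermentation isozyme genes in each culture, with the S. eubayanus copies above and the S. cerevisiae copies below; glucose is blue, maltose gray and maltotriose red, circles are culture 1 and triangles culture 2. The red points stand apart from both other sugars for HXT5, PDC5, PDC6, SeADH2 and ACS1.

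Most glycolytic genes changed by less than 2-fold. In upper glycolysis 1 S. eubayanus gene rose and 4 fell of 9, and 5 S. cerevisiae genes rose and 2 fell of 10; in lower glycolysis the counts were 1 and 3 of 9, and 2 and 3 of 9. Pyruvate kinase did not pass the test, SeCDC19 being at 2091 and 2108 FPKM on glucose and 2429 and 2298 on maltotriose and ScCDC19 at 2104 and 2079 FPKM on glucose and 2067 and 2145 on maltotriose. Relative to maltose, however, SeCDC19 was 0.99 and ScCDC19 1.08 higher on the log2 scale on maltotriose.

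Isozymes shifted inside these steps. Of the glyceraldehyde-3-phosphate dehydrogenases, ScTDH3 rose from 6515 and 6303 to 15733 and 15446 FPKM (log2 fold change 1.28 ± 0.07, adjusted p = 1.1e-05) while ScTDH2 fell from 2517 and 2463 to 948 and 903 (log2 fold change -1.43 ± 0.08, adjusted p = 1.26e-05). The stress-related form was opposite in the subgenomes, SeTDH1 rising from 22.7 and 30.8 to 323 and 304 FPKM (log2 fold change 3.52) and ScTDH1 falling from 142 and 201 to 82.4 and 82.6 (log2 fold change -1.02). The fall of ScTDH1 lost its call without glucose culture 2, maltotriose culture 1 or maltotriose culture 2 (ScTDH1 log2 fold change -0.77, -1.02 and -1.03; adjusted p = 0.0837, 0.0699 and 0.0714). Enolase 2, the form induced by glucose, fell, ScENO2 from 3672 and 3434 to 825 and 795 FPKM (log2 fold change -2.13 ± 0.09, adjusted p = 3.32e-06). Of the S. eubayanus models annotated as ENO1, copy b fell from 3071 and 2866 to 666 and 618 FPKM (SeENO1 copy b, log2 fold change -2.21). Phosphoglycerate mutase fell only on the S. eubayanus side, SeGPM1 from 3313 and 3286 to 1636 and 1552 FPKM against 3239 and 3299 FPKM on glucose and 3124 and 2979 on maltotriose for ScGPM1, and the difference between the copies was -0.95 on the log2 scale (limma on the log2 ratio of the copies, adjusted p = 1.03e-06). The TDH and ENO paralogs are similar in sequence, so part of their reads may have been exchanged or dropped.

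The pyruvate decarboxylase genes moved in 3 directions. PDC1, the main form, stayed high, SePDC1 at 4494 and 4444 FPKM on glucose and 5544 and 7098 on maltotriose (log2 fold change 0.49) and ScPDC1 at 3656 and 3601 FPKM on glucose and 3859.9 and 5003 on maltotriose (adjusted p = 0.0989). The SePDC1 log2 fold change did not pass without glucose culture 1, glucose culture 2 or maltotriose culture 2 (adjusted p = 0.0565, 0.0615 and 0.0578). PDC5 fell almost to nothing, SePDC5 from 834 and 1102 to 5.39 and 5.20 FPKM (log2 fold change -7.25 ± 0.16, adjusted p = 4.13e-07) and ScPDC5 from 588 and 775 to 2.06 and 2.95 (log2 fold change -7.60 ± 0.18, adjusted p = 5.15e-07). This separated maltotriose from maltose too, where SePDC5 was at 1883 and 2149.9 and ScPDC5 at 1442 and 1541 FPKM. PDC6, a minor form, rose, SePDC6 from 4.66 and 4.58 to 135 and 147 FPKM and ScPDC6 from 6.95 and 8.05 to 86.2 and 67.6.

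Alcohol dehydrogenase 2, which oxidizes ethanol to acetaldehyde, gave the largest difference between copies of the hybrid. SeADH2 went from 1.85 and 1.62 FPKM on glucose to 2844 and 2606 on maltotriose (log2 fold change 9.96 ± 0.13, adjusted p = 2.21e-07), a ratio of the means of 1569 ± 179 (propagated SD, n = 2). ScADH2 was already at 759 and 760.4 FPKM on glucose and reached 2054 and 1913 FPKM (log2 fold change 1.38 ± 0.12, adjusted p = 6.09e-05), so that the copies ended near each other. Reads of ScADH1, which is close in sequence, could contribute to ScADH2. SeADH1 fell from 3483 and 3443 to 1473 and 1322 FPKM (log2 fold change -1.31), and ScADH1 stood at 3418 and 3529 FPKM on glucose and 2649 and 3087 on maltotriose (adjusted p = 0.0771). The enzymes that take acetaldehyde to acetyl coenzyme A exchanged forms. The mitochondrial aldehyde dehydrogenase ALD4 rose by 5.18 (SeALD4) and 4.17 (ScALD4), while ALD5 fell (-3.81 for SeALD5 and -3.72 for ScALD5). Acetyl coenzyme A synthetase 1, the glucose-repressed form, rose from 4.07 and 3.54 to 409 and 433 FPKM (SeACS1) and from 4.92 and 6.20 to 354 and 279 (ScACS1), while ACS2 fell (-2.22 for SeACS2 and -2.50 for ScACS2).

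Genes for the use of carbon sources other than sugar were among those with the largest rises. Of 10 S. eubayanus genes for carboxylate uptake and use, 7 rose and 2 fell (median 5.24), and of 12 S. cerevisiae genes 8 rose and 2 fell (median 6.13). The acetate carrier ADY2 was barely detected on glucose, with 0.0651 and 0 FPKM for SeADY2 and 0.260 and 0.199 for ScADY2, and reached 845 and 798 FPKM (SeADY2) and 763 and 737 FPKM (ScADY2). On maltose it was also below 1 FPKM in S. eubayanus, SeADY2 being at 0.257 and 0.101 FPKM. The lactate and pyruvate carrier JEN1 rose from 1.59 and 1.22 to 262 and 272 FPKM (SeJEN1) and from 1.92 and 2.47 to 576 and 544 (ScJEN1), and its maltose cultures lay in between, at 132 and 153 FPKM for ScJEN1. Formate dehydrogenase rose by 7.87 (SeFDH1) and 6.74 (ScFDH1 copy a).

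In the glyoxylate cycle and gluconeogenesis, 14 S. eubayanus genes rose and 5 fell of 20 (median 3.47), and 16 S. cerevisiae genes rose and 3 fell of 19 (median 3.33). Fructose-1,6-bisphosphatase rose from 0.477 and 0.270 to 95.6 and 134 FPKM (SeFBP1) and from 0.848 and 1.67 to 75.5 and 59.8 (ScFBP1). Isocitrate lyase rose from 0.730 and 0.406 to 80.9 and 76.5 FPKM (log2 fold change 5.68 ± 0.16, adjusted p = 8.19e-07) and from 12.53 and 11.1 to 154 and 146 (log2 fold change 3.56 ± 0.15, adjusted p = 3.87e-06), ScICL1 starting higher than SeICL1. The succinate-fumarate carrier gene SFC1 rose by 6.21 (SeSFC1) and 5.80 (ScSFC1), cytosolic malate dehydrogenase by 3.50 (SeMDH2) and 5.18 (ScMDH2), and cytosolic isocitrate dehydrogenase by 4.97 (SeIDP2) and 5.00 (ScIDP2). The same lists had medians of 2.30 and 2.26 relative to maltose. Of the members that fell, DAL7 moved most in the S. cerevisiae subgenome, ScDAL7 going from 86.6 and 76.3 to 6.13 and 7.07 FPKM. Its product is a malate synthase that S. cerevisiae uses to degrade allantoin, and it was named after its values were seen.

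Peroxisomal fatty acid oxidation rose as well, with 14 of 16 S. eubayanus genes (median 3.34) and 14 of 17 S. cerevisiae genes (median 2.61), and 0 and 1 falls. Acyl coenzyme A oxidase went from 0.197 and 0.327 to 133 and 115 FPKM (SePOX1) and from 0.667 and 1.74 to 108 and 80.9 (ScPOX1), thiolase from 2.83 and 3.56 to 125 and 129 FPKM (SePOT1) and from 2.17 and 2.79 to 205 and 176 (ScPOT1). Peroxisomal catalase, SeCTA1 and ScCTA1, rose by 4.88 and 5.91 on the log2 scale. For these genes the maltose cultures were close to glucose, with 3.98 and 2.43 FPKM for SeCTA1.

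Of 18 TCA cycle genes in each subgenome, 7 rose and 7 fell in S. eubayanus and 8 rose and 5 fell in S. cerevisiae (medians 0.11 and 0.06). Among all genes tested, 31.3% were higher and 39.7% lower, so these counts do not set the list apart. Citrate synthase 1 rose in both, SeCIT1 from 105 and 122 to 420.0 and 394 FPKM (log2 fold change 1.84) and ScCIT1 from 112 and 115 to 429 and 381 (log2 fold change 1.82). Aconitase 2, an isoform that also serves lysine synthesis in S. cerevisiae, fell from 251 and 235 to 13.5 and 13.4 FPKM (SeACO2) and from 204 and 198 to 16.7 and 23.2 (ScACO2).

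Respiratory chain genes rose more often than they fell, 13 against 7 of 24 in S. eubayanus and 12 against 5 of 21 in S. cerevisiae (medians 0.31 and 0.48). Their summed level over both subgenomes was 24146 and 24099 FPKM on glucose and 36399 and 35203 on maltotriose. As a share of reads this was 1.003% and 1% on glucose, 1.35% and 1.25% on maltotriose and 1.65% and 1.74% on maltose. The largest rise of this list was that of NDE2, an external NADH dehydrogenase, which went from 4.71 and 3.55 to 364 and 374 FPKM (SeNDE2) and from 0.948 and 0.656 to 161 and 166 (ScNDE2). SeCYC1, cytochrome c isoform 1, fell from 2053 and 2015 to 223 and 165 FPKM (log2 fold change -3.40 ± 0.15, adjusted p = 3.97e-06) and was at 3044 and 2772 FPKM on maltose. ScCYC7, isoform 2, rose from 19.0 and 24.5 to 337 and 333 FPKM (log2 fold change 3.90). In S. cerevisiae, 0 genes of the respiratory chain list were at least 2-fold lower (lowest log2 fold change -0.985). SeCYC1 and ScCYC7 belong to different subgenomes and do not show a switch of isoforms within 1 of them. ATP synthase genes had medians near 0, with 3 rises and 5 falls of 16 S. eubayanus and 7 rises and 3 falls of 17 S. cerevisiae genes. The summed level of the S. cerevisiae ATP synthase genes was nonetheless 8334 and 8693 FPKM on glucose and 16728 and 15823 on maltotriose, with 5 genes at least 2-fold higher and 0 at least 2-fold lower. By share of reads their rise was smaller, from 0.411% and 0.4215% on glucose to 0.587% and 0.5245% on maltotriose. The maltose cultures were higher still, at 0.653% and 0.736%. At the mitochondrial pyruvate carrier, MPC3, the respiratory form, rose from 5.19 and 11.2 to 792 and 774 FPKM (SeMPC3) and from 16.6 and 21.5 to 1245 and 1437 (ScMPC3). SeMPC2, the fermentative form, fell from 826 and 789 to 145 and 163 FPKM. Of the 8 S. cerevisiae genes for pyruvate dehydrogenase and this carrier, 0 fell (lowest log2 fold change -0.147), so no such fall was called in that subgenome. Relative to maltose the TCA cycle medians were -0.71 and -0.57 and those of the respiratory chain -0.38 and -0.35.

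Glycogen genes rose without a fall, 9 of 14 in S. eubayanus and 13 of 17 in S. cerevisiae (medians 1.76 and 1.70). ScGIP2, a regulatory subunit of the phosphatase that activates glycogen synthase, rose from 1.45 and 0.996 to 40.9 and 37.6 FPKM (log2 fold change 4.19). The glucoamylase gene SGA1, which S. cerevisiae expresses late in sporulation, rose by 3.16 (SeSGA1) and 3.82 (ScSGA1). Of the trehalose genes, 5 rose and 3 fell of 10 in S. eubayanus and 5 rose and 2 fell of 11 in S. cerevisiae. The acid trehalase ATH1, which degrades trehalose, rose most, from 4.25 and 3.48 to 58.0 and 58.1 FPKM (SeATH1) and from 2.53 and 2.02 to 47.2 and 47.5 (ScATH1). ScTPS3, for a subunit of the synthase complex, fell from 22.1 and 20.1 to 5.34 and 3.54 FPKM (log2 fold change -2.04). Glycogen medians relative to maltose were -0.14 in S. eubayanus and 0.19 in S. cerevisiae, and trehalose medians -0.94 and -0.45.

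The glycerol proton symporter STL1 rose from 0.757 and 0.905 to 87.2 and 60.3 FPKM (SeSTL1) and from 0.811 and 0.562 to 160.4 and 152 (ScSTL1). On maltose SeSTL1 was at 99.9 and 57.7 and ScSTL1 at 221 and 140.2 FPKM, and the difference from maltotriose did not pass the test (adjusted p = 0.847 and 0.516). Glycerol-3-phosphatase 1 rose in both subgenomes, SeGPP1 from 723 and 733 to 4806 and 5930.3 FPKM (log2 fold change 2.87) and ScGPP1 from 450.5 and 444 to 1238 and 1239 (log2 fold change 1.47). In the pentose phosphate pathway the main form of 6-phosphogluconate dehydrogenase fell in both subgenomes, and further in S. cerevisiae, SeGND1 from 741 and 767 to 67.5 and 54.1 FPKM (log2 fold change -3.62 ± 0.13, adjusted p = 2.02e-06) and ScGND1 from 617 and 581 to 10.4 and 9.34 (log2 fold change -5.79 ± 0.13, adjusted p = 4.58e-07). The response of the GND1 copies differed by 2.17 ± 0.10 on the log2 scale (adjusted p = 2.3e-06). The minor forms rose, ScGND2 from 5.96 and 5.88 to 173 and 122 FPKM, the transketolase gene SeTKL2 from 2.68 and 1.63 to 799 and 595 and ScTKL2 from 1.22 and 1.22 to 306 and 183, and the transaldolase genes SeNQM1 and ScNQM1 by 4.59 and 5.82.

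Genes for small stress proteins reached some of the highest transcript levels on maltotriose. Of the stationary phase and stress list, 13 genes rose and 2 fell of 19 in S. eubayanus (median 2.87), and 16 rose and 1 fell of 24 in S. cerevisiae (median 4.37). The hydrophilin gene GRE1 went from 0.538 and 0.657 to 12531 and 14627 FPKM (SeGRE1) and from 40.9 and 45.5 to 29610.0 and 25165 (ScGRE1). SIP18, another hydrophilin, went from 3.26 and 5.76 to 5969 and 7452 FPKM (SeSIP18) and from 6.01 and 2.59 to 21209 and 25718 (ScSIP18). HSP12, which encodes a small membrane-protecting heat shock protein, went from 97.0 and 141 to 15636 and 17482 FPKM (SeHSP12) and from 28.7 and 37.2 to 29236 and 29872 (ScHSP12). On maltose these genes were far lower, ScHSP12 at 147 and 208 and SeGRE1 at 1.27 and 4.01 FPKM. The list as a whole took 0.384% and 0.434% of all reads with glucose as the sugar, 0.568% and 0.973% with maltose, and 6.47% and 6.63% with maltotriose.

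Several further genes went from a few FPKM to the range of the most abundant transcripts. SPG1 and SPG4, needed for survival in stationary phase at high temperature in S. cerevisiae, reached 10282 and 13619 FPKM (SeSPG1), 6247 and 7900.0 (ScSPG1), 11657 and 14326 (SeSPG4) and 5165 and 5951 (ScSPG4) from below 10 FPKM on glucose. RGI2, induced in respiratory growth, went from 0 and 0.457 to 3822 and 4555 FPKM (SeRGI2) and from 0.224 and 0.457 to 4969 and 5840.3 (ScRGI2). SeTMA10, for a ribosome-associated protein, rose from 9.35 and 25.1 to 8695 and 10279 FPKM, but had also been at 347 and 1828 on maltose, and the SeTMA10 log2 fold change was 8.50 or 9.84 without glucose culture 1 or 2. SeDPC7 rose from 0.4998 and 1.78 to 4184 and 3807 FPKM. ScDDR2, a multistress gene with no S. eubayanus partner in the annotation, rose from 14.9 and 21.9 to 11606 and 11859 FPKM (log2 fold change 9.26 ± 0.51, adjusted p = 1.02e-05).

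The promoter of DDR2 is shown because it carries the stress response element, AGGGG, to which Msn2 and Msn4 bind in S. cerevisiae. The sequence is that of reference strain S288C (RefSeq, R64, chrXV:231806-232055, minus strand), 250 bases that end 51 bases before the start codon, and CBC-1 may differ from it. Capitals mark AGGGG on either strand (CCCCT on the strand shown).
DDR2: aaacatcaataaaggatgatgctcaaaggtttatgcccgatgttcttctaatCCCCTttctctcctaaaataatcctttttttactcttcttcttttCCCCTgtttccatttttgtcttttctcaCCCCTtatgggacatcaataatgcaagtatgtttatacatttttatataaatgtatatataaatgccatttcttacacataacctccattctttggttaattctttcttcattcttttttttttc
This stretch holds 3 matches. In S288C, 1157 of 6026 promoters of this length (19.2%) hold at least 1 match, as do 13 of the 22 matched promoters of the stationary phase list (59.1%) and 31 of the 79 matched promoters of S. cerevisiae genes that rose by 5 or more on the log2 scale (39.2%). A match is a run of letters, and binding was not measured.

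Of the heat shock chaperones, 6 rose and 12 fell of 25 in S. eubayanus and 8 rose and 12 fell of 27 in S. cerevisiae, beside 31.3% higher and 39.7% lower of all genes tested. The Hsp70 gene SSA3 rose from 10.9 and 9.35 to 226 and 260.4 FPKM (SeSSA3) and from 5.58 and 5.45 to 436 and 499 (ScSSA3), while its relative SSA2, expressed in growing cells, fell from 431 and 398 to 57.2 and 41.8 FPKM (ScSSA2) and from 477 and 451 to 7.87 and 5.57 (SeSSA2 copy b). The small heat shock protein gene HSP26 rose by 4.86 (SeHSP26) and 2.78 (ScHSP26). Cytosolic catalase, SeCTT1 and ScCTT1, rose by 4.39 and 4.84, although the maltotriose cultures differed, at 362 and 162 FPKM for ScCTT1. The oxidative stress defence list, which holds CTT1, moved both ways. In S. eubayanus 13 rose and 15 fell of 31 (median -0.15), and in S. cerevisiae 15 rose and 10 fell of 32 (median 0.42). Of the autophagy genes, 31 of 36 rose in S. eubayanus and 35 of 40 in S. cerevisiae (medians 1.46 and 1.69), with 1 and 0 falls. ATG36, the receptor for peroxisome degradation, rose from 4.65 and 5.19 to 168 and 189 FPKM (SeATG36) and from 4.15 and 4.55 to 191 and 205 (ScATG36).

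**Figure D4:**
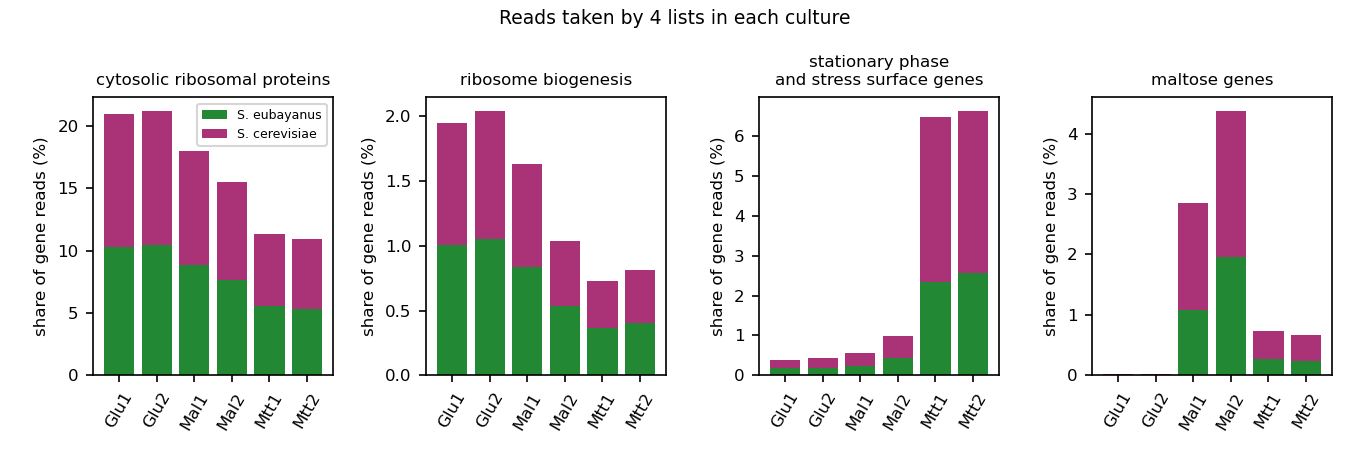
Share of all gene reads (%) taken by 4 lists in each culture (Glu glucose, Mal maltose, Mtt maltotriose), with S. eubayanus genes in green and S. cerevisiae genes in purple stacked from 0. Cytosolic ribosomal proteins go from 20.95% and 21.2% on glucose to 11.3% and 10.96% on maltotriose, and stationary phase and stress genes from 0.384% and 0.434% to 6.47% and 6.63%; each panel has its own axis.

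Cytosolic ribosomal protein genes fell almost throughout, 120 of 129 in S. eubayanus and 126 of 131 in S. cerevisiae (medians -0.97 and -0.93), with 2 and 1 rises. Their share of the reads was 20.95% and 21.2% with glucose as the sugar, 18.0% and 15.5% with maltose, and 11.3% and 10.96% with maltotriose. SeRPL9A fell from 1001 and 1063 to 215 and 199 FPKM (log2 fold change -2.31) and ScRPL9A from 1167 and 1229.6 to 256 and 202 (log2 fold change -2.39). Mitochondrial ribosomal protein genes also fell, 75 of 77 and 70 of 77 (medians -1.25 and -1.08). Here maltose lay on the other side of glucose, as their share of the reads was 0.826% and 0.834% with glucose as the sugar, 1.09% and 1.13% with maltose, and 0.397% and 0.428% with maltotriose.

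Ribosome biogenesis factors, which process and assemble ribosomal RNA, gave 109 falls of 123 in S. eubayanus and 112 of 125 in S. cerevisiae and no rise (medians -1.54 and -1.26). Fibrillarin, SeNOP1 and ScNOP1, fell, with log2 fold changes of -1.97 and -2.78. ScNOP58, its partner in the box C/D particle, fell from 171 and 181 to 27.5 and 29.1 FPKM (log2 fold change -2.59 ± 0.15, adjusted p = 1.31e-05). SeRRP9 fell from 47.4 and 50.6 to 7.83 and 9.83 FPKM and the helicase gene SeDBP8 from 22.7 and 22.1 to 3.24 and 3.28. Maltose culture 2 was also low for SeDBP8, with 17.2 and 6.08 FPKM in the maltose cultures.

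The NOP58 promoter is shown because it holds both elements described for this regulon in S. cerevisiae, PAC (GATGAG) and RRPE (AAAAATTTT). It is S288C sequence again (RefSeq, R64, chrXV:898411-898660, minus strand), with matches on either strand in capitals. The matches to the 2 motifs shared no base in this stretch.
NOP58: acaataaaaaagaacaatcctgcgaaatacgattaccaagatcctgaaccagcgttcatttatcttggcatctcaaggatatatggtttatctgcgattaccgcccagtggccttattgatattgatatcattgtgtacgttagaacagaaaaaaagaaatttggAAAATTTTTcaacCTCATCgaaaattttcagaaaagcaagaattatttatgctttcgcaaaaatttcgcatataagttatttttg
Among S288C promoters of this length, 1068 of 6026 (17.7%) hold PAC, 426 (7.07%) hold RRPE and 209 (3.47%) hold both, against 102 (85%), 74 (61.7%) and 66 (55%) of the 120 matched promoters of the ribosome biogenesis list. Of the 105 matched promoters of cytosolic ribosomal proteins, 15 (14.3%) hold PAC. These shares describe the promoters and were not tested.

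Other growth-related lists fell in both subgenomes. Proteasome genes fell in 30 of 37 and 26 of 38 cases (medians -0.57 and -0.54), core histone genes in 9 of 10 and 8 of 10. SeHTA1 copy a fell from 1501 and 1522 to 130.5 and 127 FPKM (log2 fold change -3.54 ± 0.09, adjusted p = 6.51e-07) and ScHTA2 from 2119 and 2165 to 360.4 and 387 (log2 fold change -2.52 ± 0.09, adjusted p = 1.88e-06). Of 16 cyclin genes in each subgenome, 8 fell and 1 rose in S. eubayanus and 9 fell and 2 rose in S. cerevisiae, and the G1 cyclin gene ScCLN1 copy a rose from 29.3 and 28.8 to 128 and 137 FPKM.

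Synthesis of arginine, histidine and lysine fell in 23 of 25 genes of each subgenome (medians -1.98 and -1.86). ScLYS1, the last step of lysine synthesis, fell from 611 and 528 to 22.3 and 22.7 FPKM (log2 fold change -4.60 ± 0.16, adjusted p = 1.92e-06) and SeLYS1 from 286 and 242 to 19.6 and 24.2 (log2 fold change -3.53 ± 0.18, adjusted p = 7.91e-06). Methionine synthesis and sulfate assimilation fell in 26 of 33 and 22 of 34 genes (medians -1.68 and -1.50), with SeMET3, for ATP sulfurylase, going from 176 and 166 to 10.98 and 8.50 FPKM and ScMET3 from 262 and 240.2 to 18.5 and 17.1. Branched-chain and aromatic amino acid synthesis fell in 22 of 28 and 19 of 28 genes (medians -1.59 and -1.17). The members that rose include catabolic enzymes of the Ehrlich pathway. The decarboxylase gene ARO10 rose from 0.669 and 1.10 to 38.5 and 54.3 FPKM (SeARO10) and from 1.70 and 1.73 to 126 and 233 (ScARO10 copy b), and the transaminase genes SeARO9 and ScARO9 by 4.07 and 4.25, while ARO8, the transaminase of synthesis, fell (-2.32 for SeARO8 and -4.07 for ScARO8). Glutamate dehydrogenase 3, the form used on nonfermentable carbon, rose from 15.6 and 12.7 to 489 and 586 FPKM (SeGDH3) and from 5.57 and 5.10 to 551 and 714 (ScGDH3). Its list of ammonium, glutamate and nitrogen catabolite genes moved both ways (medians 0.18 and 0.19). Of 27 S. eubayanus members 11 rose and 7 fell, and of 28 S. cerevisiae members 13 rose and 8 fell.

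Ergosterol genes fell in 17 of 26 cases in each subgenome, with 3 and 4 rises (medians -1.07 and -0.79). SeERG6 fell from 237 and 233 to 18.0 and 13.3 FPKM (log2 fold change -3.84) and ScERG6 from 209 and 200.2 to 39.6 and 30.3 (log2 fold change -2.53), whereas the fatty acid desaturase gene OLE1 rose by 1.82 (SeOLE1) and 1.96 (ScOLE1). Fatty acid synthesis genes moved both ways, with 5 rises and 5 falls of 11 in S. eubayanus and 7 and 4 of 12 in S. cerevisiae. The main plasma membrane proton pump, whose gradient drives maltose and maltotriose symport, fell: SePMA1 from 1357 and 1344 to 445 and 402 FPKM (log2 fold change -1.67 ± 0.10, adjusted p = 1.25e-05) and ScPMA1 from 1202 and 1168 to 227 and 186 (log2 fold change -2.52 ± 0.12, adjusted p = 6.46e-06). Its minor form rose, SePMA2 from 1.98 and 1.67 to 47.5 and 41.2 FPKM and ScPMA2 from 2.05 and 2.31 to 260.1 and 144. Flocculation and cell wall mannoprotein genes moved both ways. In S. eubayanus 11 rose and 11 fell of 23 (median 0.03), and in S. cerevisiae 10 rose and 12 fell of 22 (median -0.44). Among them, the mannoprotein gene TIP1 rose from 9.95 and 8.70 to 1133 and 925 FPKM (SeTIP1) and from 8.33 and 6.34 to 3476 and 3170.0 (ScTIP1), and the adhesin gene FLO11 from 1.74 and 1.72 to 35.0 and 41.5 (SeFLO11) and from 2.27 and 1.86 to 1114 and 1036 (ScFLO11 copy b). On maltose FLO11 was at an intermediate level, ScFLO11 copy b standing at 127 and 131 FPKM.

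As a check on the cells in the cultures, markers of haploid mating and of sporulation were read. A MATa/MATα strain represses haploid genes. The pheromone receptor gene ScSTE2 rose from 4.68 and 4.87 to 19.5 and 19.5 FPKM (log2 fold change 1.83), and SeSTE2 was at 2.35 and 3.44 FPKM on glucose and 5.98 and 5.36 on maltotriose. The list rose in 7 of 12 tested S. eubayanus and 10 of 12 S. cerevisiae genes, with SeAGA2, for the a-agglutinin adhesion subunit, going from 1.19 and 1.21 to 54.0 and 84.3 FPKM, and took 0.00672% and 0.00688% of the reads on glucose and 0.0212% and 0.0247% on maltotriose. The sporulation inducer IME1 rose from 2.94 and 3.10 to 19.5 and 28.3 FPKM (SeIME1) and from 0.102 and 0.104 to 22.5 and 16.4 (ScIME1), and the spore wall gene SPS100 by 4.93 (SeSPS100) and 6.00 (ScSPS100). By contrast, SeFUS1 and ScFUS1, for a cell fusion protein, stayed below 2 FPKM on both sugars. Of the copies of NDT80, the middle sporulation activator, ScNDT80 rose from 0.766 and 1.20 to 2.32 and 2.83 FPKM (log2 fold change 0.85 ± 0.19, adjusted p = 0.00605), a call lost without glucose culture 1 (ScNDT80 log2 fold change 0.70, adjusted p = 0.0654), and SeNDT80 was at 0 and 0.0891 FPKM on maltotriose. Of the 11 tested sporulation genes in each subgenome, 6 rose and 4 fell in S. eubayanus (lowest log2 fold change -2.42). In S. cerevisiae 9 rose and 1 fell (lowest -2.67). FUS1 and NDT80 were named after their values were seen. The part of sporulating or mating cells in the other results was not tested.

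Besides the genes above, SeMRH1, for a plasma membrane protein, fell from 218 and 271 to 4.87 and 11.8 FPKM, SeFSH1, for a putative serine hydrolase, from 408 and 426 to 16.1 and 19.4 and SeCHA1, for the catabolic serine deaminase, from 69.7 and 64.9 to 2.01 and 3.20. In S. cerevisiae, the carbon-sulfur lyase gene ScIRC7 fell from 86.2 and 86.2 to 1.59 and 1.26 FPKM, the water channel gene ScAQY1 copy a from 169 and 194 to 5.20 and 5.74 and the cell wall transglycosylase gene ScUTR2 from 182 and 164 to 5.39 and 5.09. ScEEB1 copy a, for an enzyme of ethyl ester synthesis, fell from 404 and 383 to 15.2 and 15.3 FPKM (log2 fold change -4.60 ± 0.21, adjusted p = 5.39e-06) and SeEEB1 from 49.9 and 40.1 to 4.86 and 7.48 (log2 fold change -2.70 ± 0.32, adjusted p = 0.000301).

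A systematic name was present once in each subgenome, both averaging 1 FPKM or more, for 4613 gene pairs. In 2399 of them (52.0%) both copies were called in the same direction, and in 180 they were called in opposite directions, the S. eubayanus copy being the higher one in 72. The response itself, tested as the change of the log2 ratio of the copies, differed in 58.9% of the pairs, in 1234 toward S. eubayanus and in 1482 toward S. cerevisiae. The typical difference was small, with a median absolute value of 0.48 on the log2 scale, and 890 pairs (19.3%) differed by 2-fold or more.

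The pairs with the largest differences toward S. eubayanus were ADH2, ARI1, HXT2, YLR012C and RGI1. The ADH2 copies differed by 8.58 ± 0.12 on the log2 scale (adjusted p = 3.31e-09), with the values given above. ARI1, an NADPH-dependent aldehyde reductase, was opposite in direction, SeARI1 rising from 34.3 and 33.4 to 117 and 100.2 FPKM and ScARI1 falling from 84.8 and 83.7 to 1.78 and 1.34, a difference of 6.71 ± 0.14. The HXT2 copies differed by 5.26 ± 0.21 and the TDH1 copies by 4.54 ± 0.11. SeRGI1, related to RGI2, rose from 6.73 and 23.7 to 454 and 284 FPKM while ScRGI1 was at 35.5 and 161 FPKM on glucose and 95.6 and 68.3 on maltotriose, and both were highest in maltose culture 2 (1452 and 2319.7 FPKM). Both copies varied between the glucose cultures, and without glucose culture 1 or 2 the SeRGI1 log2 fold change was 3.86 or 5.54 and the ScRGI1 log2 fold change -0.99 or 1.16. For YLR012C the S. eubayanus copy had no read on glucose and 12.6 and 9.15 FPKM on maltotriose, so its difference depends on the pseudocount.

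Toward S. cerevisiae, the largest differences were those of DPA10, HSP31, CRC1, YDL144C and SIT1. ScDPA10 rose from 0.630 and 1.07 to 1220.0 and 1455 FPKM and SeDPA10 from 208 and 196 to 2568 and 2532, a difference of -5.85 ± 0.23. HSP31, a glyoxalase and chaperone, fell on the S. eubayanus side, SeHSP31 from 119 and 109.6 to 2.06 and 1.96 FPKM, while ScHSP31 stood at 334 and 327 FPKM on glucose and 301 and 378 on maltotriose (difference -5.28 ± 0.13). CRC1, the mitochondrial carnitine carrier, rose on the S. cerevisiae side, ScCRC1 from 1.86 and 1.84 to 80.6 and 87.6 FPKM, with SeCRC1 at 12.4 and 9.02 FPKM on glucose and 12.9 and 14.2 on maltotriose (difference -4.57 ± 0.17). SeYDL144C fell from 172 and 140.4 to 10.6 and 10.4 FPKM against 32.8 and 28.8 FPKM on glucose and 40.0 and 37.9 on maltotriose for ScYDL144C, and the siderophore transporter gene ScSIT1 rose from 2.12 and 2.58 to 35.9 and 48.5 FPKM against 38.8 and 47.6 FPKM on glucose and 38.7 and 34.8 on maltotriose for SeSIT1. In the stationary phase list, 9 of 17 pairs were called toward S. cerevisiae and 4 toward S. eubayanus (median -1.70), while the 113 pairs of ribosome biogenesis had a median of -0.13 and no opposite calls.

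**Figure D5:**
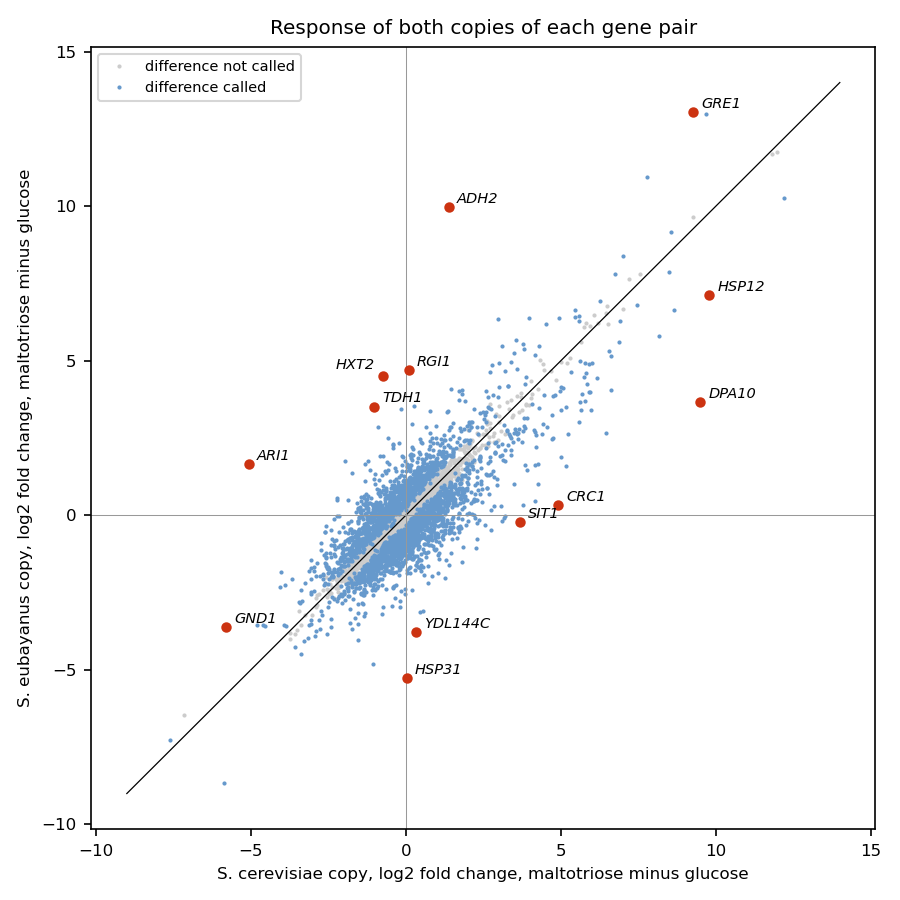
Log2 fold change on maltotriose relative to glucose of the S. eubayanus copy (vertical) against the S. cerevisiae copy (horizontal) for 4613 gene pairs; pairs whose response differed between the copies are blue, others gray, and the diagonal marks equal response. Labelled pairs in red include ADH2, at 8.58 above the diagonal, and DPA10, at -5.85 below it.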

How the data were processed

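RNA sequencing of 6 cultures of hybrid HTSH020 was used. The authors deposited FPKM values per gene model on the joined genomes of CDFM21L.1 and CBC-1; the labels' processing notes name STAR 2.5.3a, SAMtools and featureCounts (Subread 1.6.3), whereas the methods describe htseq-count and the removal of reads mapping to several places. Reads recovered from the FPKM values were whole (tolerance 0.1) in 100% of cases and gave the depths. Copies and divided models of the maltose genes were summed. Genes averaging 1 FPKM or more were fitted with limma 3.58.1 (R 4.3.3) on log2(FPKM + 1) over all 6 libraries with a trended prior, and tested in the contrasts maltotriose minus glucose and maltotriose minus maltose, with Benjamini-Hochberg adjustment over all genes at 0.05. Copies were compared by limma on the log2 ratio of FPKM + 1. A permutation test of 2 against 2 cultures could not go below p = 0.333. The members and lists were chosen with earlier results of these data known. Named in the text are all maltose, isomaltase and invertase genes, members of glycolysis, the ethanol pathway, glucose sensing and hexose transport, up to 4 called genes of largest change per list and subgenome with their other copy, the 10 largest rises and falls of each subgenome, and the 5 pairs of largest difference in each direction. Promoters were read from the S288C RefSeq genome, since CBC-1 sequence was not used here. The script was tested on simulated data. Alternatives comprised other pseudocounts, filters and scalings, a replicate block, voom on the recovered reads and leaving out each culture.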

Additional observations from a re-analysis of the deposited data

How the results depend on the processing

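With 2 cultures per sugar, the counts above depend on the spread between duplicates. Leaving out 1 culture gave 1344 to 1786 higher and 1769 to 2366 lower genes in S. eubayanus, 1365 to 1895 and 1657 to 2306 in S. cerevisiae, 13 to 15 maltose genes called, and 895 to 1235 and 1084 to 1483 pairs differing toward S. eubayanus and S. cerevisiae. Requiring at least 2-fold left 977 higher and 1260 lower S. eubayanus genes and 990 and 1180 S. cerevisiae genes. The correlation of deviations between cultures with the same number was -0.04 for glucose and maltotriose, 0.26 for glucose and maltose and -0.14 for maltose and maltotriose, and a replicate block gave 1651 and 2208 calls in S. eubayanus and 1695 and 2118 in S. cerevisiae. Higher genes were 44.1% of all calls, 50.1% after median-ratio rescaling and 36.0% after rescaling to equal FPKM sums. This last setting, and the block fitted without the maltose cultures, were chosen after seeing the data. For the named genes and pairs, 4013 of 4064 values kept their direction and side of the threshold, 17 lost the call and 34 passed where the reported value did not, with no reversal; they concern 18 of these, such as ScADH1, ScMALR2 and SeCDC19, which passed when the maltose cultures were left out of the fit. The cause was not tested. Depth limits genes below about 1 FPKM, and sugar and growth stage cannot be told apart.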
